A study of Mus musculus with 12 samples.

Results

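Myf5-labelled cells sorted from the lactating mammary gland were compared with Myf5-labelled brown adipocytes, using 4 of the 12 libraries of the study. The mammary group holds 2 libraries of GFP-positive cells from Myf5-Cre-ROSAmTmG mice at lactation day 10, sorted as lineage-negative, CD24-positive and CD29-high, the gate the labels use for myoepithelial cells. The brown fat group holds 2 libraries of GFP-positive brown adipocytes of Myf5-Cre-ROSAmTmG virgin females aged 8 weeks, sorted by surface markers that the labels do not name. All mice were of the C57BL/6 strain. The ROSAmTmG reporter turns from a red to a green membrane protein once Cre recombinase has acted, so GFP records that a cell or an ancestor expressed active Cre, not that it expresses it now. Members were chosen by their labels alone, and genes of the mitochondrial chromosome, small RNA genes and genes that share most of their sequence with another gene were left out. The files of the 2 tissues appear to count such genes differently. Tissue, lactation, sort, possibly age and possibly the counting of reads differ together between the groups, so their parts in any difference cannot be told apart. The remaining 8 libraries are GFP-negative mammary cells of the same line, and GFP-positive and GFP-negative cells of a Ucp1-iCre line. Of these, the 4 GFP-positive ones enter a comparison between the drivers. The others enter only alternative fits.

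Myf5 encodes a myogenic transcription factor that is switched on in the somites, and its Cre line labels skeletal muscle, most interscapular brown fat and some other mesenchymal cells. Myoepithelial cells are the contractile basal layer of the mammary gland: they carry smooth muscle proteins together with basal keratins, and squeeze milk from the alveoli in response to oxytocin. Brown adipocytes burn lipid for heat, through many mitochondria and the uncoupling protein Ucp1.

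The mammary libraries held 15118406 and 24011083 counts, and the brown fat libraries 12410676 and 15816710. Levels are in CPM (counts-per-million) of the retained genes, scaled by TMM factors. A gene at 0 in a single library lies under 0.109 to 0.199 CPM in the mammary libraries and under 0.287 to 0.384 CPM in the brown fat libraries, the value of 3 counts. Across 12944 tested genes, log2(CPM + 1) correlated at 0.842 between the mammary libraries and at 0.959 between the brown fat libraries, against 0.385 to 0.488 across tissues, with no test. Nothing in the labels ties the 2 libraries of a group to different mice, and the p-values below therefore cover the spread between libraries, which may be technical.

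The brown fat libraries held the markers of their label, among them Ucp1 at 13180 and 17180 CPM. For the mammary libraries the markers were mixed. The smooth muscle genes of the contractile list summed to 5971 and 8228 CPM, but the basal epithelial list summed to only 568 and 905 CPM. Fibroblast and preadipocyte markers summed to 44060 and 37660 CPM, pericyte markers to 5180 and 4701 CPM, endothelial markers to 2671 and 3840 CPM, and milk genes to 47460 and 20800 CPM. Of the sorting antigens, Cd24a was measured at 55.9 and 13.6 CPM in mammary libraries, against 0 and 0.575 CPM in brown fat libraries. Itgb1, which encodes CD29, was measured at 407 and 863 CPM against 175 and 170 CPM. The mammary group is therefore called by its sort, Myf5-labelled mammary cells, below. Whether cells of other types entered the gate was not tested, and the labels do not say which antigens the lineage gate held. In bulk libraries, fewer cells of a type and less RNA per cell cannot be told apart.

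**Figure D1:**
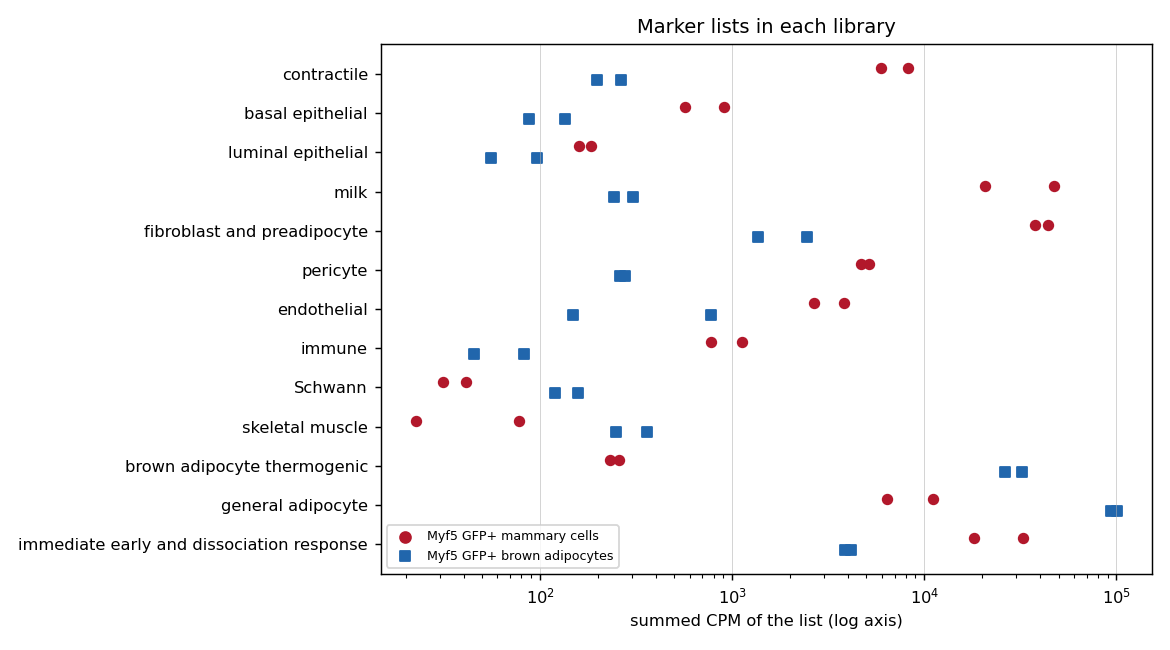
Summed CPM of the measured members of each marker list in each library (log axis), with Myf5-labelled mammary cells as circles and Myf5-labelled brown adipocytes as squares. The fibroblast and preadipocyte list reached 44060 and 37660 CPM in the mammary libraries, far above the basal epithelial list at 568 and 905 CPM.

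Between the 2 groups, 3328 of 12944 tested genes passed edgeR's quasi-likelihood test at a Benjamini-Hochberg adjusted p of 0.05, which is 25.7% of them. Of these, 1684 (13.0%) were higher and 1644 (12.7%) were lower in Myf5-labelled mammary cells, and the median log2 difference over all tested genes was 0.12. The counts of called list members below are to be read against these shares. Most of the passing differences were large: 3078 were at least 4-fold, and the smallest was 1.31 on the log2 scale. Of the genes called higher, 431 had no count in either brown fat library, and of those called lower, 428 had none in either mammary library. The number of calls depended on the libraries, with 1683 calls without brown fat library 1, 1975 without brown fat library 2, 4986 without mammary library 1 and 6801 without mammary library 2. No called gene changed direction in any of these.

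**Figure D2:**
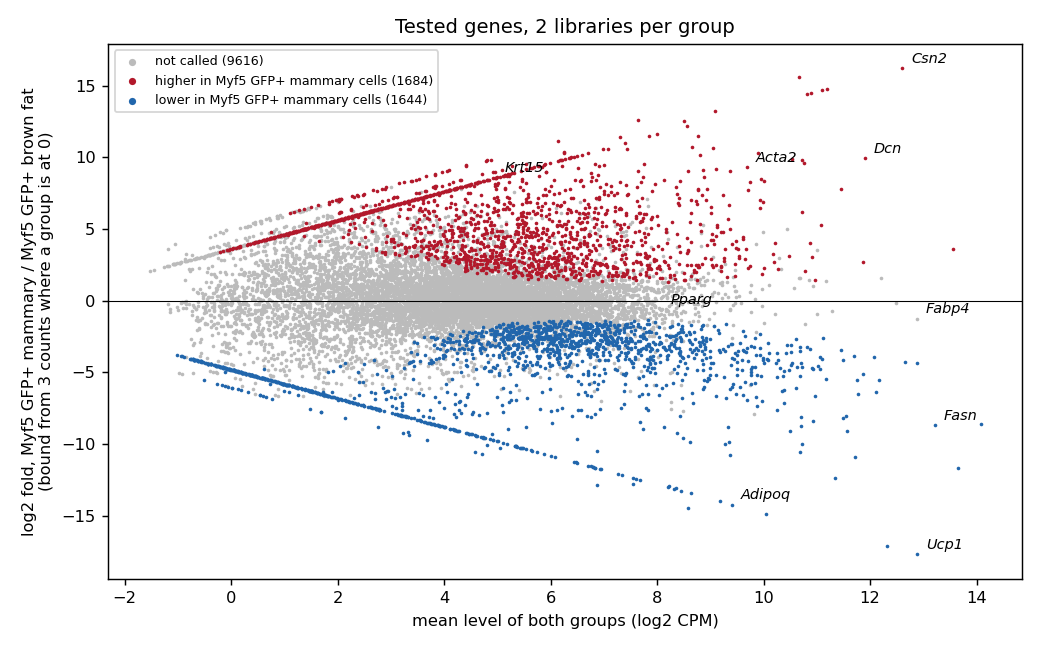
Mean level of both groups (x axis, log2 CPM) against the log2 fold of Myf5-labelled mammary cells over Myf5-labelled brown adipocytes (y axis) for the 12944 tested genes, with the bound from 3 counts where a group is at 0. The 1684 genes called higher and 1644 called lower reach from the milk gene Csn2 at the top to Ucp1 at the bottom.

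The largest rises in Myf5-labelled mammary cells were mostly of genes of milk and of connective tissue matrix. Csn2 (ENSMUSG00000063157; mm10, chr5:87692624-87699630), which encodes beta-casein, had 17710 and 7186 CPM in mammary libraries and no count in brown fat libraries. It was at least 75740-fold higher, against 3 counts over both brown fat libraries. Wap, Csn1s2a, Csn1s2b, Csn3 and Csn1s1, also milk proteins, were among the 12 genes of largest rise by the naming rule, as was Wfdc18. Apod, an apolipoprotein, had 1734 and 445 CPM against 0 and 0.192 CPM. The matrix genes Cilp, Ogn and Smoc2 stood at 326 CPM or more in both mammary libraries and at 0.640 CPM or less in both brown fat libraries. Tmem252 completed the 12, at 509 and 410 CPM against 0 in both brown fat libraries.

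The largest falls were of genes of thermogenic and lipid-storing cells. Besides Ucp1, Elovl3, Adipoq, Otop1, Mlxipl, Retn and Pck1, which are described with their groups, they were Aspg, Hp, Mrap, Ffar4 and Paqr9. Mrap, the accessory protein of melanocortin receptors, had 0 CPM in both mammary libraries and 409 and 367 CPM in brown fat libraries, at least 5494-fold lower. Ffar4, a receptor for long-chain fatty acids, was at least 4624-fold lower. Hp, haptoglobin, had 0 and 0.109 CPM against 610 and 593 CPM.

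Smooth muscle contractile genes were higher in Myf5-labelled mammary cells as a group. Of 16 tested members of the list, 12 were called higher and none lower, and the median log2 difference was 6.15, or 5.78 with genes absent from brown fat at their bound. In all 16 both mammary libraries lay above both brown fat libraries, which was so for 37.6% of all tested genes. Acta2 (ENSMUSG00000035783; mm10, chr19:34241090-34255590), smooth muscle alpha-actin, had 1682 and 1600 CPM in mammary libraries, against 2.82 and 2.30 CPM in brown fat libraries. These groups are far apart with little spread in either. The difference was 9.33 ± 0.50 on the log2 scale (SE), or 642-fold, with an adjusted p of 0.0119 by edgeR.

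Myh11 and Cnn1 varied more between the mammary libraries. Myh11, the smooth muscle myosin heavy chain, had 446 and 1438 CPM in mammary libraries and 2.82 and 1.92 CPM in brown fat libraries. Cnn1, calponin, had 138 and 314 CPM against 2.30 and 2.87 CPM. Both were higher in the second mammary library, yet both passed, at log2 differences of 8.64 ± 0.92 (adjusted p = 0.0124) and 6.44 ± 0.66 (adjusted p = 0.0121, SE). Lmod1, leiomodin, had 109 and 46.5 CPM against 0.128 and 0.0958 CPM. Mylk, the kinase that starts smooth muscle contraction by phosphorylating myosin light chain, had 414 and 530 CPM against 5.50 and 10.6 CPM. Actg2, Actn1, Cald1, Myl9, Synpo2, Tpm1 and Tpm2 were the other called members. Tagln, transgelin, was not tested because most of its sequence is shared with another gene, and was measured at 841 and 1128 CPM against 5.25 and 2.97 CPM.

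Not every muscle gene was low in brown adipocytes. Des, which encodes the intermediate filament desmin, had 86.8 and 169 CPM in mammary libraries and 76.0 and 82.8 CPM in brown fat libraries, and did not pass (log2 difference 0.69 ± 0.46 SE, adjusted p = 0.318). Smtn had 38.4 and 202 CPM against 1.66 and 36.5 CPM, and Synm 19.7 and 76.4 CPM against 9.47 and 12.4 CPM. Neither passed, and in each the mammary libraries lay far apart. Myocd, the coactivator of smooth muscle genes, had 2.26 and 8.996 CPM in mammary libraries and no count in brown fat libraries, and missed the threshold.

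Acta2 and Myl9 are shown with the bases before their transcription start, because the CArG box, the site bound by serum response factor, is the best known element of smooth muscle promoters. RefSeq promoter windows (GRCm38.p6, 250 bases before to 50 after the start) were found for 13 contractile genes and searched for the 10-letter box with at most 1 G or C among its 6 central letters. The box reads alike on both strands. Capitals mark the matches.
Acta2, chr19:34255374-34255623, minus strand: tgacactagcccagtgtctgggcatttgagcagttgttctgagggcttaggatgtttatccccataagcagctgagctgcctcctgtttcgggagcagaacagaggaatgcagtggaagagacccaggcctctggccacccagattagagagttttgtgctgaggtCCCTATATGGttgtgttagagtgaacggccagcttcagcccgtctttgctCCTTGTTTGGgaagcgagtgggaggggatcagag
Myl9, chr2:156775214-156775463, plus strand: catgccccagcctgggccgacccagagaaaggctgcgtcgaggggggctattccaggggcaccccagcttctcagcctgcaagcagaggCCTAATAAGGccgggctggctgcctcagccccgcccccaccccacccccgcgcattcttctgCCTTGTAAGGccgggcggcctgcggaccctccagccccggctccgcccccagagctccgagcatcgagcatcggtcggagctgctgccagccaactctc
Acta2 holds matches starting at -84 and -34 from its start, each with 1 G or C in the centre. Myl9 holds one at -161 without G or C and one at -99 with 1. Of the 13 contractile genes 3 held a match, the third being Synm, against 11.3% of 27025 genes with a window. With no G or C allowed, the count was 1 of 13, against 1.81%. The MCAT motif CATTCC, on either strand, was in 6 of the 13 and in 16.6% of all. These are counts of letters in a short window and say nothing of binding.

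Fewer of the genes that regulate contraction were called. Of 20 tested members 7 were called higher and none lower, against 13.0% and 12.7% of all tested genes, with a median log2 difference of 2.36. Ppp1r12a, the targeting subunit of myosin phosphatase, had 216 and 176 CPM in mammary libraries and 4.99 and 6.42 CPM in brown fat libraries, a log2 difference of 5.10 ± 0.44 (SE, adjusted p = 0.0119 by edgeR). Rock1, the kinase that restrains that phosphatase, was 5.41-fold higher. Cacna1c, the L-type calcium channel, had 20.98 and 28.8 CPM against 0.256 and 0 CPM. Prkg1, the cGMP-dependent kinase, was absent from brown fat libraries and at least 122-fold higher. Oxtr, the oxytocin receptor, was chosen here after its values were seen: it had 15.1 and 39.7 CPM in mammary libraries and 15.9 and 5.65 CPM in brown fat libraries. Its groups overlapped and it did not pass.

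**Figure D3:**
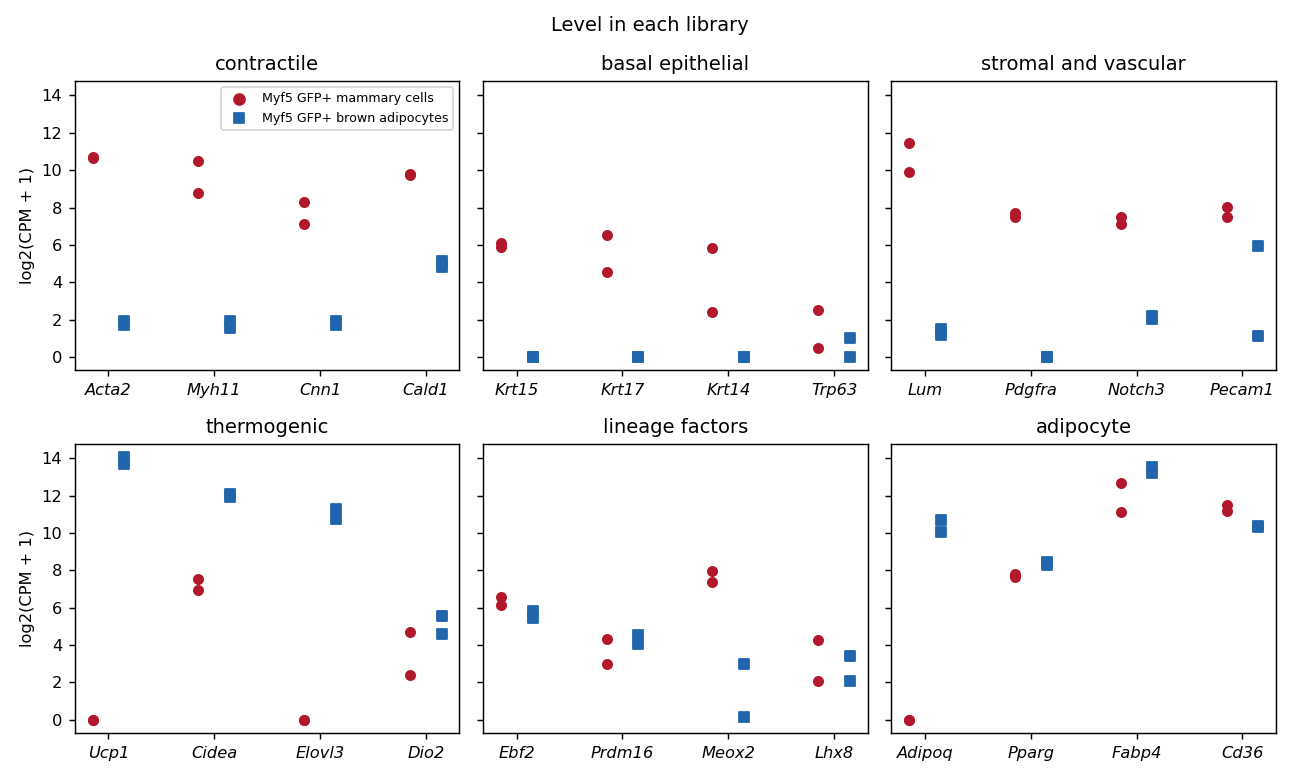
Level of each gene in each library, as log2(CPM + 1), with Myf5-labelled mammary cells (circles) left of Myf5-labelled brown adipocytes (squares). Acta2 and Ucp1 are separated by many units, while the groups of Ebf2, Prdm16, Lhx8, Pparg, Fabp4, Cd36 and Dio2 overlap or lie far less apart. Pecam1 was chosen for display after its values were seen.

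Basal epithelial genes were higher in Myf5-labelled mammary cells but at low levels and unevenly between its libraries. Of 18 tested members 9 were called higher and none lower, with a median log2 difference of 5.85, or 5.15 with bounds. The count was 14 without mammary library 1, 11 without mammary library 2, 6 without brown fat library 1 and 7 without brown fat library 2. Krt15 (mm10, chr11:100131758-100135928), a basal keratin, had 58.2 and 67.3 CPM in mammary libraries and none in brown fat libraries, at least 382-fold higher (adjusted p = 0.0121 by edgeR). Krt17 had 22.9 and 91.6 CPM and Krt5 10.7 and 32.7 CPM, again with none in brown fat. Krt14, the classical partner of Krt5, had 4.25 and 56.3 CPM against 0 in both, and with so wide a spread it missed the threshold (adjusted p = 0.0520). Trp63, the transcription factor that maintains basal epithelia, had 0.398 and 4.81 CPM against 1.02 and 0 CPM, and did not pass. Egfr, Snai2, Col17a1, Sfn and Dst were also called higher. Some of these are also used outside epithelia: Egfr, at 98.1 and 50.4 CPM against 5.89 and 3.74 CPM, is a growth factor receptor of many cell types.

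Luminal epithelial genes were near their floor except for a few. Only 11 of the 18 members had counts enough to be tested, and 5 of these were called higher, with none lower. Without brown fat library 1 the count was 3. Krt8 and Krt18, the paired luminal keratins, had 7.50 and 28.3 CPM, and 17.6 and 13.0 CPM, in mammary libraries, and none in brown fat libraries. Ehf, an epithelial transcription factor, had 27.8 and 40.2 CPM and Cldn4, a tight junction protein, 12.4 and 9.14 CPM, also with none in brown fat. The fifth was Elf5, a regulator of alveolar secretory cells. Not all members went this way. Of the 11 tested, 8 had both mammary libraries above both brown fat libraries and 3 had the reverse. Over all tested genes these shares were 37.6% and 36.4%. The list summed to 160 and 184 CPM in mammary libraries, against 95.85 and 55.45 CPM in brown fat libraries. Members at 0 numbered 6 and 2 of 18 in mammary libraries, and 13 and 9 of 18 in brown fat libraries.

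The milk genes stood out by their level. Of 12 tested members 11 were called higher, and Xdh, at 168 and 275 CPM against 95.2 and 112 CPM, did not pass. The summed level was 47460 and 20800 CPM in mammary libraries and 242 and 303 CPM in brown fat libraries, where nearly all of it was Mfge8 and Xdh. Wap, whey acidic protein, had 4272 and 2196 CPM in mammary libraries, against 0.128 and 0 CPM. Milk proteins are made by luminal secretory cells, whose keratins are given above. The part of milk RNA from other cells in these values was not tested.

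Genes of brown fat heat production had the lowest median difference of the 27 gene lists. Of 18 tested members 10 were called lower in Myf5-labelled mammary cells and none higher, with a median log2 difference of -6.87. Ucp1 (ENSMUSG00000031710; mm10, chr8:83290352-83298452) had no count in either mammary library, against 13180 and 17180 CPM in brown fat libraries. This puts it at least 215200-fold lower (adjusted p = 0.0119 by edgeR). Elovl3, a fatty acid elongase of active brown fat, was at least 30120-fold lower, Slc27a2, a fatty acid transporter, at least 9847-fold, Otop1, a proton channel, at least 8410-fold and Bmp8b, a secreted factor that raises thermogenesis, at least 1254-fold. None of these had a count in a mammary library. Cox8b and Cox7a1, subunits of cytochrome oxidase, Kcnk3, a potassium channel, and Slc25a20, the acylcarnitine carrier, were called lower too.

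Some members of the thermogenic list had counts in the mammary libraries, and which cells these came from was not tested. Cidea, which coats lipid droplets and also acts in milk lipid secretion, had 182 and 123 CPM in mammary libraries and 3923 and 4288 CPM in brown fat libraries. It was 26.9-fold lower (log2 difference -4.75 ± 0.47 SE, adjusted p = 0.0121). Dio2, the deiodinase that activates thyroid hormone, had 25.0 and 4.30 CPM against 23.2 and 45.7 CPM, and Prdm16, the determinant of brown fat identity, 19.1 and 6.77 CPM against 15.7 and 22.6 CPM. Both overlapped between groups and did not pass. Adrb3, Gk, Pank1, Ppargc1a and Ppargc1b lay far below the brown fat libraries in both mammary libraries, but did not pass. Their 2 mammary libraries differed by many-fold from each other. Adrb3, for example, had 0 and 6.85 CPM against 746 and 679 CPM (adjusted p = 0.0622). The number of members called lower was 15 or 16 in each of the fits that left out 1 library.

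General adipocyte genes fell almost as a block, but a few kept levels of the same order in both tissues. Of 27 tested members 22 were called lower and none higher, with a median log2 difference of -5.36. Adipoq, adiponectin, had no count in mammary libraries against 1649 and 1072 CPM in brown fat libraries, at least 19290-fold lower. Retn, resistin, was at least 5279-fold lower. Gpd1, which makes glycerol 3-phosphate for triglyceride, had 6.90 and 8.52 CPM against 22300 and 29460 CPM. Cebpa, an adipogenic transcription factor, had 4.51 and 4.08 CPM against 161 and 153 CPM, a log2 difference of -5.19 ± 0.41 (SE, adjusted p = 0.0119 by edgeR). Pck1, a key enzyme of glyceroneogenesis, had 2.06 and 0 CPM against 5447 and 4993 CPM. Lipases and their partners Pnpla2, Lipe, Lpl, Mgll and G0s2 fell as well, by 5.02-fold for Mgll and by up to 65.4-fold for Lipe.

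Pparg, Fabp4, Cd36, Aqp7 and Lep did not pass. Pparg, the master regulator of adipogenesis, had 200 and 222 CPM in mammary libraries and 306 and 351 CPM in brown fat libraries (log2 difference -0.64 ± 0.34 SE, adjusted p = 0.225). Cd36, a fatty acid carrier found in endothelium, adipocytes and mammary epithelium alike, had 2848 and 2324 CPM against 1315 and 1270 CPM and was the only member with both mammary libraries above both brown fat libraries. Fabp4, a fatty acid binding protein of adipocytes and capillaries, had 6632 and 2243 CPM against 11870 and 9301 CPM. Endothelial markers in the same mammary libraries summed to 2671 and 3840 CPM, and their part in these levels was not tested.

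**Figure D4:**
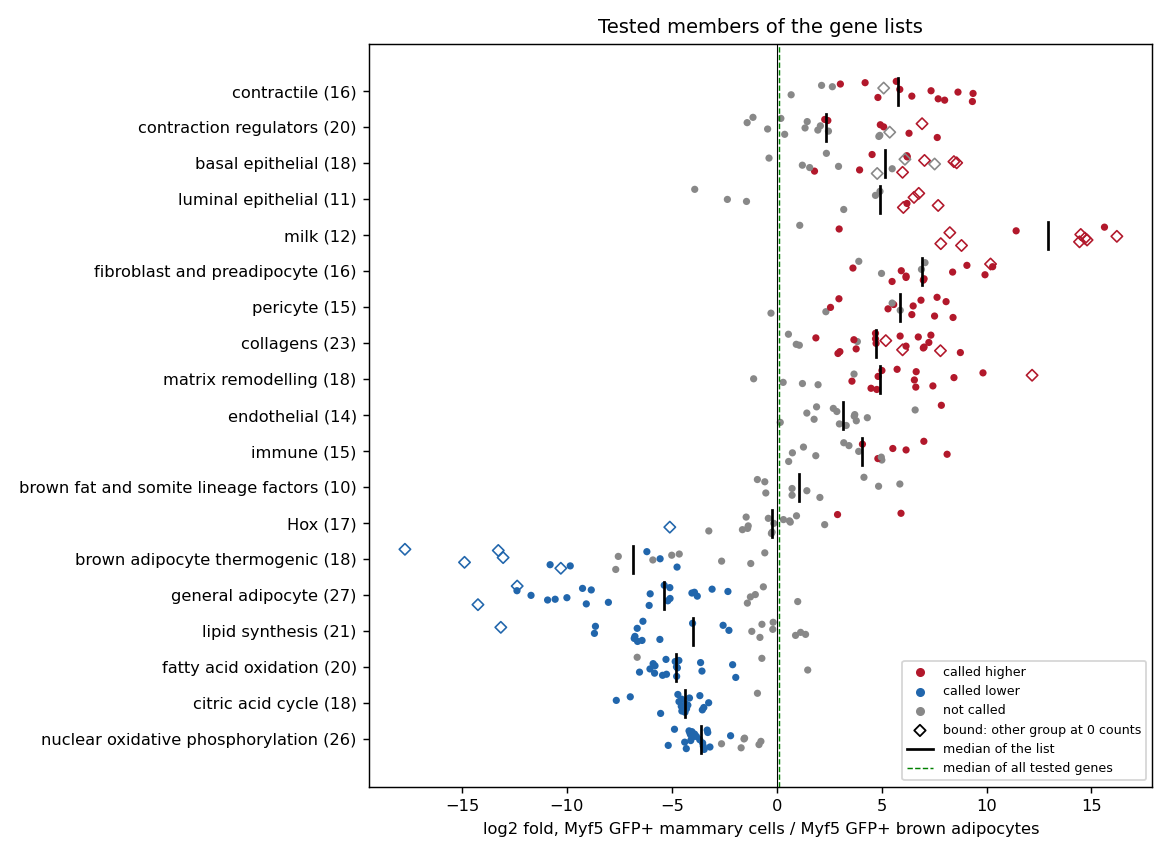
Log2 fold of Myf5-labelled mammary cells over Myf5-labelled brown adipocytes (x axis) for each tested member of the gene lists, with the number tested in brackets, the list median as a black bar and the median of all tested genes as a dashed line. Contractile, milk, matrix and stromal lists lie to the right, and thermogenic, adipocyte and mitochondrial lists to the left.

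Of 21 tested members of the lipid synthesis list 13 were called lower in Myf5-labelled mammary cells and none higher. Fasn, fatty acid synthase, had 35.7 and 56.5 CPM in mammary libraries and 21020 and 17000 CPM in brown fat libraries, 413-fold lower. Scd1, the stearoyl desaturase, had 90.7 and 82.9 CPM against 45240 and 23980 CPM, 399-fold lower. Mlxipl, the glucose-sensing transcription factor ChREBP, had no count in the mammary libraries. Among the members that did not pass were Elovl5, Fads1, Fads2, Hmgcs1, Sqle and Srebf2, which act in fatty acid elongation, in desaturation and in cholesterol synthesis. Insig1, a sterol-regulated protein, was called lower, at 77.0 and 96.2 CPM against 521 and 319 CPM. These genes were named after their values were seen.

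Mitochondrial oxidation genes were mostly lower. For fatty acid oxidation, 17 of 20 tested members were called lower and none higher, with a median log2 difference of -4.81. Acadvl, which opens the oxidation of long chains, had 76.2 and 73.0 CPM in mammary libraries and 6409 and 7473 CPM in brown fat libraries, 93.1-fold lower (adjusted p = 0.0119 by edgeR). Acadm, for medium chains, was 38.2-fold lower and Hadh 25.4-fold lower. Cpt1a, Hadhb and Ppara did not pass. Cpt1a, the liver-type carnitine transferase, had 25.2 and 53.5 CPM against 6.78 and 21.5 CPM. Those 3 exceptions were likewise named after their values were seen.

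The citric acid cycle list followed, with 17 of 18 members called lower and a median of -4.36. Idh3g, a subunit of isocitrate dehydrogenase, had 89.4 and 103 CPM in mammary libraries and 1995 and 1934 CPM in brown fat libraries, 20.4-fold lower. The exception was Suclg2, at 65.8 and 43.7 CPM against 111 and 95.7 CPM. Of 26 nuclear genes of oxidative phosphorylation 20 were called lower and none higher, with a median of -3.60, and in all 26 both mammary libraries lay below both brown fat libraries, which was so for 36.4% of all tested genes. Uqcrfs1 of complex III was 29.3-fold lower, Cyc1 20.9-fold and Cox5a of complex IV 36.0-fold.

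Transcription factors of brown fat and of the somites, in which Myf5 acts, did not separate the tissues by the test. Of 16 members 10 could be tested and none was called by edgeR. An unadjusted p under 0.05 was seen for 4 of the 10, Ebf1, Meox1, Meox2 and Tbx15. That is about the share over all tested genes, 5417 of 12944. Myf5 itself had 12.8 CPM in mammary library 1, from 193 counts, and no count in mammary library 2 or in either brown fat library. Ebf2, an early determinant of brown preadipocytes, had 92.4 and 69.5 CPM in mammary libraries and 42.6 and 54.9 CPM in brown fat libraries. Ebf3, Lhx8 and En1 also lay within about an order of magnitude in all 4 libraries. Meox2, a mesodermal homeobox gene also used in vascular cells, had 246 and 166 CPM against 0.128 and 6.80 CPM and missed the threshold (adjusted p = 0.0567). Tbx15, a factor of skeletal and adipose mesenchyme, had 36.1 and 54.1 CPM against 4.74 and 0.383 CPM (adjusted p = 0.0711). Pax7 and Myod1 had no count in any of the 4 libraries. The number called higher was 2 to 5 in the fits that left out 1 library, and 4 with DESeq2.

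Hox genes, which record position along the body axis, were measured at like summed levels, 192 and 203 CPM in mammary libraries and 171 and 202 CPM in brown fat libraries. Of 36 retained members 17 could be tested, 2 were called higher and 1 lower, shares no larger than the 13.0% and 12.7% of all tested genes. Hoxd8 (mm10, chr2:74704615-74707933) had 46.4 and 75.1 CPM in mammary libraries and 8.45 and 7.85 CPM in brown fat libraries, 7.46-fold higher (adjusted p = 0.0228 by edgeR). Its neighbour Hoxd9 had 12.4 and 22.8 CPM against 0.384 and 0.192 CPM. Hoxa9 had no count in mammary libraries and 2.05 and 2.78 CPM in brown fat libraries, and was at least 34.2-fold lower in mammary cells. Hoxc5, Hoxc8, Hoxa5 and Hoxc4 were present in every library and did not pass. None of the Hox calls held in the fit without brown fat library 2, and Hoxa9 was lost without either brown fat library. Without mammary library 2, 3 were called higher and 5 lower, and without mammary library 1, 3 higher and 2 lower.

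Matrix and stromal genes were high in Myf5-labelled mammary cells. Of 16 tested fibroblast and preadipocyte markers 12 were called higher, with a median log2 difference of 6.94. Pdgfra, the receptor that defines mesenchymal progenitors, had 178 and 207 CPM in mammary libraries and none in brown fat libraries, at least 1170-fold higher. Lum, the proteoglycan lumican, had 2856 and 940 CPM against 1.79 and 1.25 CPM. Dpp4, a marker of interstitial progenitors, had 136 and 131 CPM against 0.512 and 0.287 CPM. Of 23 tested collagens 19 were called higher, or 12 without brown fat library 2. Col3a1 had 2620 and 4047 CPM against 56.1 and 37.1 CPM, and Col6a3 267 and 422 CPM against 1.41 and 2.78 CPM. Col4a1 and Col4a2, the basement membrane chains, did not pass.

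Of 18 tested matrix remodelling genes 13 were called higher. Mmp3, stromelysin, had 1122 and 390 CPM in mammary libraries and none in brown fat libraries, at least 4599-fold higher, and Mmp2, a gelatinase, was 344-fold higher. Of 24 integrins and laminins 8 were called higher and 16 did not pass, against 13.0% of all tested genes called higher. The number higher depended strongly on which libraries were in the fit. Lama2, a laminin chain of muscle and mesenchyme, had 160 and 130 CPM against none, at least 882-fold higher. Itgb3 was 52.8-fold higher.

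Most pericyte markers passed, but most endothelial and immune markers did not, against 13.0% of all tested genes called higher. Even so, all 14 tested endothelial and all 15 tested immune markers had a log2 difference above 0. In 12 of these endothelial and 13 of these immune markers both mammary libraries lay above both brown fat libraries. That was so for 37.6% of all tested genes. Of 15 pericyte markers 11 were called higher, among them Notch3, a receptor of mural cells, at 136 and 180 CPM in mammary libraries against 3.07 and 3.54 CPM in brown fat libraries, and Abcc9 and Vtn. Cspg4, which encodes NG2, had 45.9 and 83.4 CPM against 97.4 and 59.1 CPM. Of 14 endothelial markers only Vwf was called, a smaller share than the 13.0% of all tested genes, at 31.7 and 25.2 CPM against 0.256 and 0 CPM. The brown fat libraries differed here: the list summed to 148 CPM in the first and 776 CPM in the second, and Pecam1 had 182 and 263 CPM in mammary libraries against 1.15 and 59.9 CPM. Without brown fat library 2, 13 endothelial members were called higher, and 2 were without brown fat library 1 or without mammary library 1. Of 15 immune markers 6 were called higher, or 3 without brown fat library 1. They were led by the antigen presentation gene Cd74, at 381 and 608 CPM against 1.41 and 2.11 CPM, while Ptprc, which encodes the pan-leukocyte antigen CD45, had 19.98 and 4.15 CPM against 0.384 and 2.20 CPM and did not pass. Pecam1, Cspg4 and Ptprc were named after their values were seen, as defining markers.

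Markers of other cell types were fewer, and their calls were no larger a share than the 13.0% higher and 12.7% lower of all tested genes. Of 10 tested skeletal muscle genes only Mb was called: myoglobin, which brown fat also expresses, had no count in mammary libraries and 151 and 340 CPM in brown fat libraries. Of 8 Schwann cell genes Sox10 was called higher, at 2.19 and 5.68 CPM against none, and S100b lower, at 8.76 and 5.06 CPM against 51.6 and 85.2 CPM. Neither call held without brown fat library 2. In the erythroid list Alas2 alone could be tested and did not pass.

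Growth factors and binding proteins were mostly higher, with 18 of 22 tested members above 0 and a median log2 difference of 5.39. Their share called higher was above the 13.0% of all tested genes, and their share called lower was under the 12.7%. Of 22 growth factors and binding proteins 9 were called higher and 1 lower, and the number higher was 16 without mammary library 1. The number lower was 3 without mammary library 1, 4 without mammary library 2 and 2 without either brown fat library. Inhba, the activin A subunit, had 35.1 and 43.7 CPM in mammary libraries and none in brown fat libraries, at least 240-fold higher. Bmp4 had 21.2 and 28.5 CPM and was at least 151-fold higher. Igfbp5, an insulin-like growth factor binding protein, had 762 and 810 CPM against 11.3 and 11.9 CPM, a log2 difference of 6.08 ± 0.41 (SE, adjusted p = 0.0119 by edgeR). The gene called lower with all 4 libraries was Nrg4, a neuregulin that brown fat secretes, named here after its values were seen, with 1.93 and 0.0364 CPM against 242 and 213 CPM. Of 7 adrenergic receptors 1 was called in each direction, close to the shares of 13.0% and 12.7% over all tested genes. Adra1a fell, with 7.24 and 4.92 CPM against 73.2 and 101 CPM, while Adra1b, at 2.32 and 9.11 CPM against none, rose at an adjusted p of 0.0498. The call of Adra1b was lost without brown fat library 1 and without brown fat library 2. The number of receptors called lower was 2 or 3 in each fit that left out 1 library.

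Immediate early genes, which cell dissociation can induce, were higher in Myf5-labelled mammary cells. The list summed to 18080 and 32520 CPM in mammary libraries and 3875 and 4136 CPM in brown fat libraries. Of 17 tested members 11 were called higher and none lower, or 7 without brown fat library 2. Nr4a1 had 1416 and 1576 CPM against 82.8 and 70.9 CPM and Fosl2 193 and 181 CPM against 10.5 and 10.3 CPM. Whether isolation differed between the tissues is not stated, and its part in the calls was not tested. Of 9 tested cell cycle genes Pcna, Mcm5 and Top2a were called higher, against 13.0% of all tested genes. These 3 calls did not all hold when a brown fat library was left out.

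The same tissue comparison in the Ucp1-iCre line was used to ask whether the tissue difference depends on the driver. In the 8 GFP-positive libraries the difference of the tissue effects, Myf5 minus Ucp1, passed for 976 of 14048 genes (6.95%), of which 942 (6.71%) were positive and 34 (0.242%) negative. For Lipe, hormone-sensitive lipase, the tissue effect was -5.99 in the Myf5 line and -0.76 in the Ucp1 line on the log2 scale, a difference of -5.23 ± 0.74 (SE, adjusted p = 0.0271 by edgeR). Cald1, caldesmon, differed by 4.70 ± 0.91 (adjusted p = 0.0373 by edgeR), with effects of 4.87 and 0.17. In the Myf5 line it had 12881 and 24633 raw counts in mammary libraries and 269 and 287 in brown fat libraries. In the Ucp1 line it had 9230 and 5584 against 2703 and 1509, the latter from retained totals of 6730822 and 10548869. Such a difference can lie in the mammary cells, the brown fat cells or both, and which was not tested. For Acta2 the difference of 5.90 ± 1.40 missed the threshold (adjusted p = 0.0531 by edgeR). Its raw counts were 22 and 24 in the Myf5 brown fat libraries and 794 and 575 in those of the Ucp1 line. The mammary libraries of the Ucp1 line lay far apart, at 3948 and 57025, against 25332 and 43942 in the Myf5 line. For Cyc1 and Idh3g the differences were small against their SE, at -0.135 ± 0.930 and -0.547 ± 0.778, and did not pass. None of these calls held in every fit: the count was 0 by edgeR when any one of the Myf5 mammary, Myf5 brown fat or Ucp1 brown fat libraries was left out, with 2109 to 3482 genes at an unadjusted p under 0.05, and 3358 and 3236 when either Ucp1 mammary library was left out. Ucp1 had no count in any of the 4 GFP-positive mammary libraries of both lines.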

How the data were processed

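Bulk RNA was sequenced from sorted mouse cells in 12 libraries, of which 4 form the main comparison. Extraction used an RNeasy Micro kit, amplification the SMART-Seq v4 low-input chemistry and sequencing an Illumina HiSeq 2500, per the labels' protocols. The submitters' processing notes name TopHat, HTSeq, DESeq2 and the build mm10. Not given in the sources used here are their versions, the strand setting and the rule for multiply mapped reads, so overlapping genes on opposite strands may share counts. The authors deposited raw read counts per Ensembl gene, 1 file per library. No column was left unused (0).

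From the 38924 genes of the files, 22997 annotated in GENCODE M21 were retained. Genes of the mitochondrial chromosome, small RNA genes, pseudogenes, immunoglobulin and T cell receptor segments, and genes with over 50% of their 31-base transcript sequences (sampled every 10 bases) in another gene were left out. The mitochondrial genes held 1.36% and 0.648% of counts in mammary libraries and 23.9% and 21.4% in brown fat libraries. Small RNA genes held 0.000238% and 0.000325% against 0.02003% and 0.02693%. Genes with over 50% shared sequence held 6.96% and 6.283% against 2.365% and 2.557%. How far counting differed between the files of the 2 tissues was not tested, so these shares cannot be read as levels in the cells. Retained totals were 13827632 and 22309509 counts in mammary and 9117917 and 11997707 in brown fat libraries.

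edgeR 4.0.16 (R 4.3.3) fitted the 4 libraries with TMM factors, filterByExpr (minimum count 10), the quasi-likelihood test and Benjamini-Hochberg adjustment over all tested genes at 0.05. The difference between drivers was fitted on the 8 GFP-positive libraries. Where a group had no count, a fold is a bound from 3 counts over that group, the upper limit of a 95% interval for 0 counts. Such floors cover counting error only. On simulated counts with changes of log2 size 2, 66% were called in the tissue comparison (13406 genes) and 36% in the difference between drivers (13949 genes). At log2 size 4 these shares were 100% and 99%. The simulation gave every gene the same assumed spread, not the spread of these libraries, and changed only genes with enough expected counts. The shares therefore do not give the power of the real comparison, where Meox2, at a log2 difference of 5.87, was not called. limma 3.58.1 (voom), DESeq2 1.42.0, RLE size factors, other filters, other sets of libraries and leaving out each library were alternatives. Tables and figures were made in Python 3.11.15 with numpy 2.4.6, pandas 2.3.3 and, for drawing, matplotlib 3.10.9.

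The comparison, its genes and the 27 lists (497 symbols, 495 found, 11 in more than 1 list) were chosen with earlier results of these data known. No list was given a set test. Named genes were the driver and sorting genes, up to 12 largest rises and falls that were called, reached a mean of 50 CPM in the higher group, had at most 5% shared sequence and no overlap between groups (predicted genes left out), per list the called members ranked first by adjusted p, at most 4 (or the 2 of highest CPM where none was called), and any member of the contractile, basal epithelial, thermogenic, lineage factor, adipocyte and Hox lists. Other names are stated as chosen after their values were seen or as the members or exceptions of a small count. Values of a few list members are not reported here.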

Additional observations from a re-analysis of the deposited data

Results flagged for a closer look

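For 30 of the named genes the effect of tissue in the Myf5 line differed from that in the Ucp1 line. This was by edgeR's test of the difference itself at an adjusted p of 0.05, which 6.95% of all tested genes passed. Many named genes were chosen by their difference between the Myf5 libraries, which also enter this test. The 30 can therefore not be set against that 6.95%. The values are log2 differences, Myf5 minus Ucp1. The adipocyte and metabolic genes Acacb (-4.86), Adipoq (-12.34), Car3 (-6.84), Cebpa (-5.43), Fasn (-4.72), Hadha (-4.15), Hp (-6.43) and Lipe (-5.23) had a lower tissue effect in the Myf5 line. The contractile, matrix and mural genes and other largest rises Abcc9 (6.75), Apod (16.07), Cald1 (4.70), Col6a1 (4.98), Col6a3 (4.96), Igfbp5 (4.43), Lum (15.44), Mylk (4.28), Ogn (18.65), Smoc2 (13.53), Tmem252 (14.62), Tpm1 (4.09) and Vtn (7.89) had a higher tissue effect in the Myf5 line. Adipoq had no count in the Myf5 mammary libraries and Tmem252 none in the Myf5 brown fat libraries, so that these 2 fitted values depend on the prior count. Some other large values rest on counts near the floor. In the Ucp1 mammary libraries Ogn had 1 and 0 counts, Smoc2 9 and 0, Apod 0 and 309 and Lum 4 and 3. In the Myf5 brown fat libraries Ogn had 2 and 0 counts, Smoc2 5 and 0, Apod 0 and 2 and Lum 14 and 13. A further 9 genes had no count in either GFP-positive mammary library of the Ucp1 line, so their fitted values depend on the prior count and are no bound: Lama2 (22.53), Bmp4 (21.84), Meox1 (17.26), Dpp4 (14.93), Des (13.72), Egfr (12.03), Tbx15 (11.63), Hoxc5 (10.97) and S100b (9.21). Des, Hoxc5, Meox1 and Tbx15 had not passed between the tissues of the Myf5 line. All of these calls were lost when any one of the Myf5 mammary, Myf5 brown fat or Ucp1 brown fat libraries was left out.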

How the results depend on the processing

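The 3328 calls between the tissues of the Myf5 line (1684 higher, 1644 lower) became 5091 with DESeq2 (2739 higher). They became 5316 (3016 higher) with 10 libraries in the fit, without the GFP-positive mammary libraries of the Ucp1 line. With strictly unique protein-coding genes, where fewer genes were tested, there were 1871 (1036 higher, 835 lower). With all 12 libraries there were 2643 calls, 1058 of them lower. Leaving out 1 library gave 1683 to 6801 calls, 919 to 2952 higher and 764 to 3849 lower, and the lone library of a group is then assumed to vary like the other group. Library numbers do not pair the samples, since a lactating and a virgin mouse cannot be the same animal, and deviations of equal numbers correlated at 0.115 across genes. With the replicate number as a block there were 2702 calls. Of the 137 called named genes, none changed direction in any setting. Some calls were lost, however, 16 with all 12 libraries and 7 with the replicate block. Leaving out either brown fat library also lost some of them. Between drivers, 976 calls (942 higher, 34 lower) became 2163 with all 12 libraries (2037 higher, 126 lower) and 0 with the replicate block, at which 2823 genes had an unadjusted p under 0.05. Leaving out 1 library gave 0 to 3358 calls, 0 to 3083 higher and 0 to 307 lower. The causes were not tested. Genes that changed sign had not passed the test. Hoxb7 had a log2 difference of -1.06 with limma-voom and -0.98 with the replicate block. When 1 library was left out, the log2 differences ranged for Hoxb7 over -4.15 to 1.55, Lamb3 -9.36 to 0.60, Jag2 -0.30 to 3.64, Lhx8 -1.06 to 1.71, Hoxa2 -1.27 to 0.29, Hoxa3 -0.65 to 0.058, Hoxb5 -8.18 to 0.82, Hoxc4 -0.40 to 0.75, Hoxc5 -1.25 to 0.092 and Hoxc8 -0.54 to 1.62. Among the lists, DESeq2 called 14 basal, 8 luminal, 13 contraction regulator, 7 endothelial, 10 immune, 14 integrin and laminin and 15 growth factor genes higher, and the fit with 10 libraries called 15, 9, 14, 7, 12, 15 and 14. All 12 libraries gave 10 collagens and 6 endothelial genes, the block 6 endothelial genes, and limma-voom 8 luminal, 11 contraction regulator, 5 endothelial and 5 cell cycle genes. With strictly unique genes fewer members were tested: 5 of 11 basal and 2 of 9 luminal genes were higher, and 6 of 13 thermogenic, 10 of 12 fatty acid oxidation, 7 of 14 lipid synthesis and 13 of 13 oxidative phosphorylation genes lower. Precision is limited by 2 libraries per group.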
